A study of Rattus norvegicus with 12 samples.

Results

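The genes described here are 7 transcripts of neurotrophin signalling and of the Schwann cell, chosen by name: Ngfr, Bdnf, Ntrk2, Gdnf, S100b, Sox10 and Gap43. All 7 were found in the gene names of the array files, on 11 of 30367 probes, among 26583 gene names. Expression was measured on 1-colour Agilent rat arrays in cells dispersed with collagenase from the cervix of Sprague Dawley rats, after perfusion through the heart with saline. Nonpregnant (NP) rats were in proestrus by vaginal smear, and D21 rats were pregnant, at day 21 postbreeding, typically the day before birth. Whole cervix is the dispersed cells as frozen, from 3 NP and 3 D21 rats. Mφ-depleted cervix is the cells of 3 other NP and 3 other D21 rats, left after macrophages (Mφs) that carried the ED1 antibody were held back with magnetic beads. Each array held a single rat, so the 4 groups hold different animals, and whole cells did not go through the antibody and bead steps.

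Neurotrophins are secreted proteins that keep sensory and sympathetic neurons alive and guide their axons. Brain-derived neurotrophic factor (Bdnf) binds the receptor tyrosine kinase Ntrk2, and all neurotrophins bind the shared receptor Ngfr (p75). Glial cell line-derived neurotrophic factor (Gdnf) signals through the kinase Ret together with a Gfra coreceptor. Schwann cells ensheath peripheral axons and are marked by the transcription factor Sox10 and the calcium-binding protein S100b, while Gap43 is a protein of growing axon tips. Ngfr, Ntrk2 and S100b are also made by other cells, such as fibroblasts and, for S100b, fat cells. The innervation of the cervix is held to rise toward birth, and the comparison of D21 with NP rats bears on whether these transcripts differ near term.

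Levels are log2 intensities relative to the 75th percentile of each array, which is 0 on this scale, and a level says nothing of one gene against another because probes differ in brightness. The scanner software rates each spot as well above background or not. Fold changes were tested with limma; a gene entered a comparison if either group had it well above background in all 3 rats. Called higher or lower means 2-fold or more with an unadjusted p under 0.01, which the Methods use as threshold, and beside it stands the Benjamini-Hochberg adjusted p over all genes tested. The labelled tissue held its defining cells: the 10 epithelial markers were well above background on every array, and in whole cervix the smooth muscle and fibroblast markers had mean log2 levels of 3.58 or more. Arrays differed in brightness, with a 75th percentile of 290 intensity units in Mφ-depleted NP rat 7 and of 1171 in Mφ-depleted D21 rat 1, and between 44.9% and 61.7% of probes were well above background. Macrophage markers were lower in both Mφ-depleted groups: the mean log2 level of 13 of them ran from −4.30 to −3.18 there and from 0.24 to 1.19 in whole cervix.

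2 of the 7 genes have several probes whose readings differ, so the first 30 of the 60 bases of these probes are shown, 5′ to 3′ and in lower case because no base is marked. The array files give positions in the rn4 build and the transcript each probe was designed to; they do not say in which exon or UTR a probe lies. Ntrk2 has 4 probes on the minus strand of chromosome 17, at chr17:11680049-11680108 for transcript variant 2, at chr17:11734704-11734763 for variant 3, and at chr17:11495183-11495242 and chr17:11496095-11496154 for variant 1.
Ntrk2 variant 2: cctttctgaaaaggtagtttatctttaggg
Ntrk2 variant 3: ggaagactgtgcaaacattatactcctgaa
Ntrk2 variant 1, first probe: aggacctttctgaggaggacacagaatgtt
Ntrk2 variant 1, second probe: aagaacatccacacactccttcagaacttg
S100b has 2 probes on the minus strand of chromosome 20, 110 bases apart, at chr20:12791789-12791848 and chr20:12791899-12791958.
S100b, brighter probe: atcaaaattctgctcagtagacgtctcctt
S100b, dimmer probe: acagcgaatcgcggtttgttaccaagtacg
The other genes have 1 probe each: Ngfr at chr10:84263082-84263141 on the minus strand, Sox10 at chr7:117138840-117138899 on the minus strand, Gap43 at chr11:60083320-60083379 on the plus strand, Gdnf at chr2:57423957-57424016 on the plus strand, and Bdnf on the unplaced part of chromosome 3. The brightest probe stands for a gene unless another is named.

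In whole cervix, none of the 7 genes was called between D21 and NP rats. 5 of them could be tested, and 0 were called higher or lower by limma, against 5.39% and 3.09% of 14038 genes over the whole array. At an adjusted p below 0.05 the count was 0 as well, against 3.95% higher and 1.93% lower, and 0 of the 5 reached an unadjusted p below 0.05. By the methods' t-test 0 were called too. Ngfr, Ntrk2, S100b and Gap43 were well above background in all 6 whole samples, and Sox10 in 5. Bdnf and Gdnf were not well above background in any whole cervix.

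Ngfr, the shared neurotrophin receptor, was well above background in all 12 rats. In whole NP cervix its log2 level was 2.90, 0.90 and 2.19 in rats 8, 9 and 10, and in whole D21 cervix it was 3.15, 1.67 and 3.20 in rats 5, 6 and 7. The groups overlapped, with a log2 fold change of 0.68 ± 0.63 (SE, adjusted p = 0.561) and a 95% interval from −0.72 to 2.07. After Mφ depletion the NP rats 5, 6 and 7 read 0.14, −0.65 and −0.34, and the D21 rats 1, 2 and 4 read 2.90, 2.39 and 0.80. All 3 depleted NP rats lay below every other rat. The order of the group means was whole D21, Mφ-depleted D21, whole NP and Mφ-depleted NP cervix, at 2.67 ± 0.87, 2.03 ± 1.10, 2.00 ± 1.02 and −0.28 ± 0.39 (SD, n = 3 each), and the ranges of the first 3 overlap.

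Ntrk2, the receptor of Bdnf and neurotrophin 4, was well above background in all 12 rats on the variant 2 probe. Whole NP rats 8, 9 and 10 read 1.75, 0.02 and 1.25, and whole D21 rats 5, 6 and 7 read −0.05, 0.45 and 0.04. The D21 rats were the more uniform, and rat 9 of the NP group lay among them. The log2 fold change was −0.86 ± 0.45 (SE, adjusted p = 0.281), with an interval from −1.84 to 0.12. Without NP rat 9 it was −1.35 and passed the threshold for lower (adjusted p = 0.0684), the 1 omission that gave a call in whole cervix. After depletion the NP rats 5, 6 and 7 read −2.32, −2.49 and −2.13, and the D21 rats 1, 2 and 4 read −1.09, −0.79 and 0.31. The group means fell from whole NP to whole D21, Mφ-depleted D21 and Mφ-depleted NP cervix, at 1.01 ± 0.89, 0.15 ± 0.27, −0.52 ± 0.74 and −2.31 ± 0.18 (SD, n = 3 each). Each neighbouring pair overlapped except the last, where depleted NP lay apart.

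S100b was well above background in 11 of 12 rats on its brighter probe, with Mφ-depleted NP rat 7 as the exception. Whole NP rats 8, 9 and 10 read −1.19, −0.05 and 1.06, and whole D21 rats 5, 6 and 7 read −1.12, −0.31 and 0.02. The fold change between them was −0.41 ± 0.68 on the log2 scale (SE, adjusted p = 0.762), with an interval from −1.90 to 1.08. Depleted NP rats 5, 6 and 7 read −1.78, −4.00 and −3.17, and depleted D21 rats 1, 2 and 4 read −2.61, −2.18 and −0.89. The dimmer S100b probe, carried by 10 spots on each array, was not well above background in any rat. S100b calls below therefore rest on 1 of its 2 probes.

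Sox10 and Gap43 were not called in whole cervix either. Sox10, well above background in 9 of 12 rats, read −3.09, −2.33 and −2.17 in whole NP rats 8, 9 and 10 and −3.01, −2.54 and −3.20 in whole D21 rats 5, 6 and 7, a fold change of −0.39 ± 0.74 (log2, SE, adjusted p = 0.798) with an interval from −2.01 to 1.24. Gap43 was well above background in every rat. It read −1.50, −1.43 and −0.29 in whole NP rats and −3.20, −1.95 and −2.73 in whole D21 rats, so that all 3 D21 rats lay below all 3 NP rats. Its fold change of −1.56 ± 1.15 (log2, SE, adjusted p = 0.448; interval −4.07 to 0.96) was not called, and 24.2% of all genes tested in whole cervix were lower in D21 rats with no overlap, as 20.0% were higher. For S100b the group means ran from whole NP (−0.06 ± 1.12) to whole D21 (−0.47 ± 0.59), Mφ-depleted D21 (−1.89 ± 0.89) and Mφ-depleted NP cervix (−2.98 ± 1.12), and for Gap43 from whole NP (−1.07 ± 0.68) to Mφ-depleted NP (−2.07 ± 2.43), Mφ-depleted D21 (−2.51 ± 2.03) and whole D21 cervix (−2.63 ± 0.63; SD, n = 3 each), with every neighbouring pair of both overlapping. The 4 means of Sox10 lay between −3.13 ± 1.27 in Mφ-depleted NP and −2.53 ± 0.49 in whole NP cervix and all overlapped.

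**Figure D1:**
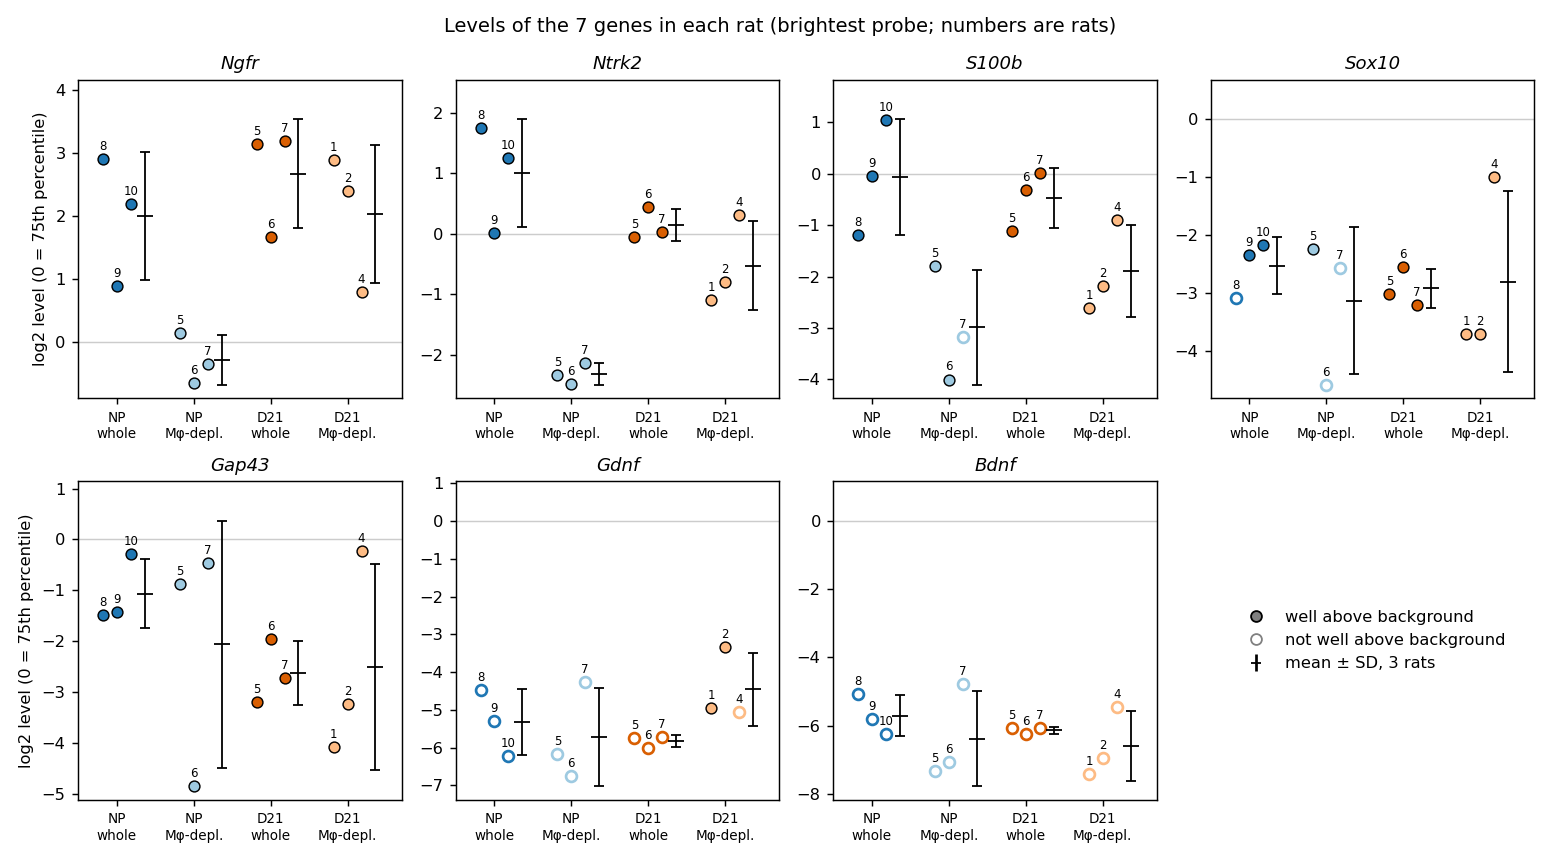
Log2 level of each of the 7 genes in each of the 12 rats, with the array's 75th percentile as 0 (y axis), by group (x axis); numbers at the points are the labels' rat numbers, filled points are well above background, and bars are the mean and SD of 3 rats. Ngfr and Ntrk2 are lowest in Mφ-depleted NP cervix, with means of −0.28 and −2.31, whereas Gap43 spreads from −4.86 to −0.46 within that same group.

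Ngfr, Ntrk2 and S100b were lower in Mφ-depleted than in whole cervix of NP rats. In NP rats 4 of the 7 genes could be tested, since Sox10 was well above background in only 2 whole and 1 depleted NP rat, and 3 were higher in whole cervix; 13.6% of 13391 genes were higher in whole NP cervix and 10.8% lower. At an adjusted p below 0.05 the same count was 3, against 17.0% of genes higher and 15.8% lower. Ngfr was 4.86-fold higher in whole NP cervix (log2 2.28 ± 0.63, SE, adjusted p = 0.0174). Ntrk2 was 9.98-fold higher on the variant 2 probe (3.32 ± 0.45, adjusted p = 2.28e-04), and with the mean of its 4 probes it was not called (0.72, adjusted p = 0.180). S100b was 7.58-fold higher (2.92 ± 0.68, adjusted p = 0.0070), entering only through the whole rats, since depleted NP rat 7 was not well above background. The 3 whole NP rats lay above the 3 depleted NP rats in each of them, as did 22.9% of genes, while 24.0% were lower with no overlap. Gap43 was not called (1.00 ± 1.15, adjusted p = 0.535). The methods' t-test, which estimates the spread from each gene's own 6 rats, called 0 of the 4 here and 0 of the 5 between the depleted groups. In D21 rats the same 3 genes were not called: 0 of 5 genes passed in either direction, against 10.0% of 14239 genes higher and 7.73% lower (11.9% and 10.5% at an adjusted p below 0.05). Among all genes 21.3% were higher and 23.1% lower with no overlap there, and each of the 5 overlapped. Values there were 0.64 ± 0.63 for Ngfr (adjusted p = 0.477), 0.67 ± 0.45 for Ntrk2 (0.288), 1.42 ± 0.68 for S100b (0.145), −0.11 ± 0.74 for Sox10 (0.925) and −0.11 ± 1.15 for Gap43 (0.953).

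A difference between D21 and NP rats was therefore tested as the whole-over-depleted change in D21 rats minus that in NP rats. Ntrk2 was called, at −2.65 ± 0.63 (log2, SE, adjusted p = 0.0567), against 4.99% of 14548 genes called lower and 2.45% higher. It did not pass an adjusted p below 0.05, as 1.95% of genes did for lower and 0.440% for higher. For Ngfr the difference was −1.64 ± 0.90 (adjusted p = 0.350) and for S100b −1.50 ± 0.97 (adjusted p = 0.423), so that a difference between the states was not shown for those.

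Between the 2 depleted groups, Ngfr and Ntrk2 were higher in D21 than in NP rats, and 2 of 5 genes were called higher, against 5.43% of 13391 genes; 0 were called lower, against 2.06%. At an adjusted p below 0.05 it was 1 of 5, against 3.62% higher and 0.971% lower. Ngfr was 4.98-fold higher (log2 2.31 ± 0.63, SE, adjusted p = 0.0654) and Ntrk2 3.46-fold higher (1.79 ± 0.45, adjusted p = 0.0455). In both, the lowest D21 rat lay above the highest NP rat, as for 9.49% of genes, while 7.53% were lower with no overlap. The other 3 had 1.09 ± 0.68 for S100b (adjusted p = 0.364), 0.33 ± 0.74 for Sox10 (0.829) and −0.45 ± 1.14 for Gap43 (0.847). These comparisons share groups: the depleted NP rats are in 2 of the contrasts above and in the test of their difference. The call of Ngfr in depleted cervix was lost without NP rat 6, NP rat 7, D21 rat 1 or D21 rat 2, with values from 1.88 to 2.28, and its call in NP rats without depleted rat 6 or 7 or whole rat 8 or 10, with values from 1.83 to 2.25.

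The arrays were run on 4 slides scanned on 3 days, and the groups were not spread evenly. All whole samples were scanned on day 3, along with 2 of the 6 depleted samples. On slide 1, whole NP rats 8 and 9 were above depleted NP rat 7 by 2.24 for Ngfr, 3.01 for Ntrk2 and 2.55 for S100b, all on the log2 scale. Depleted D21 rat 4 was above depleted NP rat 7 on the same slide by 1.14 for Ngfr and 2.44 for Ntrk2. On slide 3, depleted D21 rat 2 was above depleted NP rats 5 and 6 by 2.65 for Ngfr and 1.62 for Ntrk2. With slide as a block, Ntrk2 kept its calls in NP and in depleted cervix while Ngfr (2.67, adjusted p = 0.0590, and 2.00, adjusted p = 0.221) and S100b in NP rats (2.10, adjusted p = 0.119) did not. In whole cervix, slide 2 held D21 rats 5, 6 and 7 and NP rat 10, and the difference there was 0.48 for Ngfr, −1.11 for Ntrk2, −1.53 for S100b, −0.75 for Sox10 and −2.34 for Gap43.

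**Figure D2:**
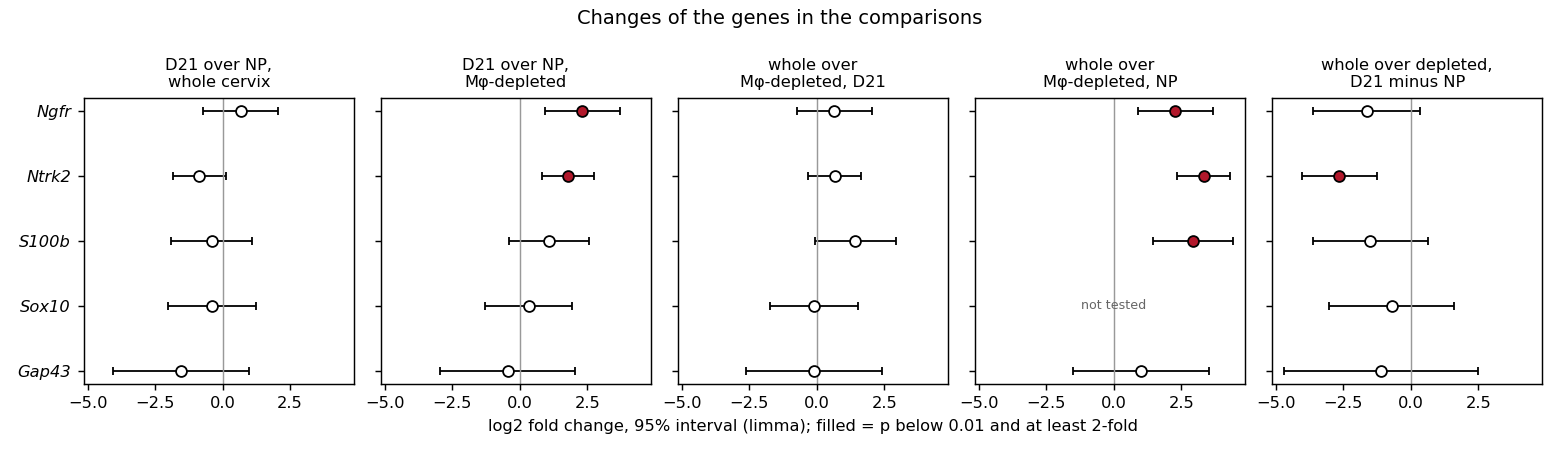
Log2 fold change of 5 of the 7 genes in the 4 comparisons and in the difference between D21 and NP rats (x axis), with 95% intervals from limma; filled points pass the threshold, and Bdnf and Gdnf, not tested, are left out. In whole cervix no interval of the 5 excludes 0, and the calls of Ngfr, Ntrk2 and S100b lie in the panels that involve Mφ-depleted NP cervix.

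Other cell types differed between the same groups. All 10 fibroblast markers were tested, and 9 were higher in whole than in depleted NP cervix, with a median log2 change of 4.15 against −0.04 over all genes. Their summed level, on the log2 scale, ran from 4.16 to 5.94 in depleted NP cervix, from 8.35 to 8.93 in depleted D21 cervix, from 9.14 to 9.43 in whole NP cervix and from 8.80 to 9.37 in whole D21 cervix. Between the depleted groups 8 of 10 were higher in D21 rats (median 2.90), and 7 of 10 had a whole-over-depleted change that was lower in D21 than in NP rats. The 9 smooth muscle markers tested were all higher in whole NP than depleted NP cervix, and the summed level of the list ran from 4.34 to 4.78 in depleted NP, from 5.42 to 7.25 in depleted D21, from 8.63 to 9.33 in whole NP and from 8.12 to 8.58 in whole D21 cervix. Of the 5 adipocyte markers tested in NP rats 3 were higher in whole cervix. Among them Cidec was not well above background in any depleted NP rat and entered only through the whole rats. Over all genes 13.6% were higher in whole than in depleted NP cervix, and 5.43% were higher in depleted D21 than in depleted NP cervix. The whole-over-depleted change was lower in D21 than in NP rats for 4.99% of all genes. Distance to the mean of a list was taken as the root mean square difference of log2 values centred over the 12 arrays. Ntrk2 was closest to the pericyte list (0.733) and nearly as close to the fibroblast list (0.748), against a spread of its own of 1.31. S100b was closest to the adipocyte list (0.677), against a spread of its own of 1.40, and its distance to the Schwann cell list was 1.20. Ngfr was less close to any list. Its distance was 1.01 to the trophic and guidance list, 1.06 to the pericyte list and 1.08 to the fibroblast list, against a spread of its own of 1.34. In bulk samples fewer cells of a type and less RNA per cell cannot be told apart, and the part of these cell types in the changes of Ngfr, Ntrk2 and S100b was not tested.

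**Figure D3:**
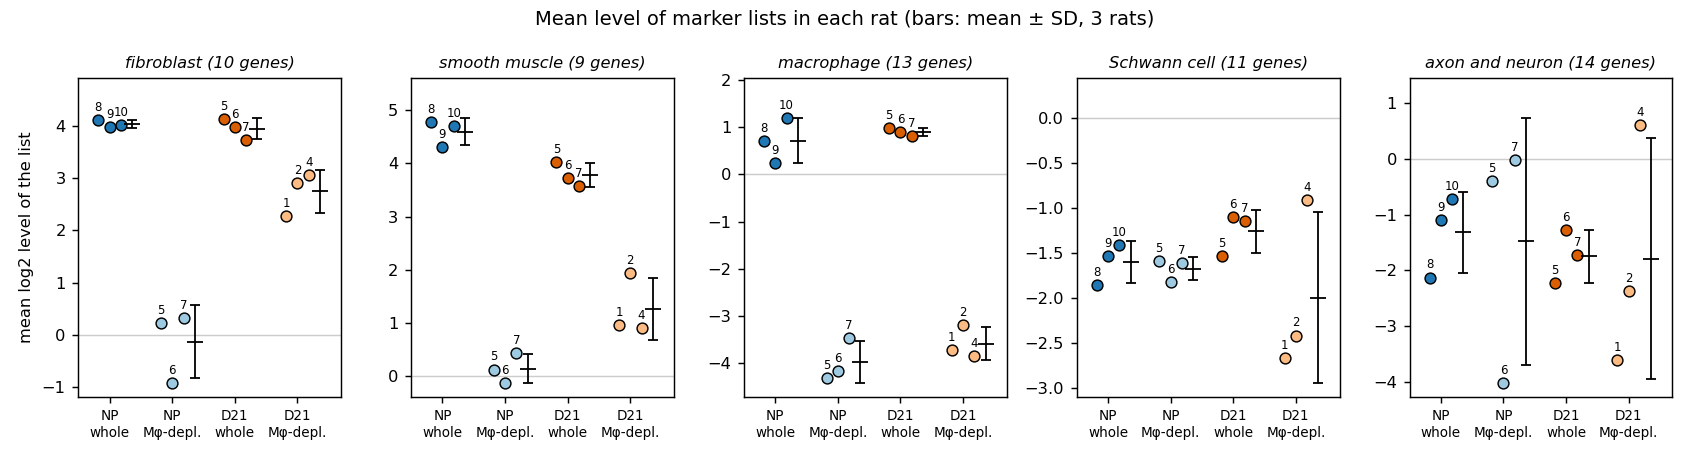
Mean log2 level of 5 marker lists in each rat, with the array's 75th percentile as 0 (y axis), by group (x axis), rat numbers at the points and the mean and SD of 3 rats as bars. The fibroblast and smooth muscle lists are lowest in Mφ-depleted NP cervix (means of −0.13 and 0.14), the macrophage list is below −3 in both depleted groups, and the axon and neuron list spreads from −4.03 to −0.02 within depleted NP rats.

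The Ntrk2 probes did not move together. The variant 3 probe is assigned to Ntrk2 by the array annotation alone, since its transcript matched no RefSeq gene, unlike those of the other Ntrk2 probes. On the variant 3 probe the depleted D21 rats 1, 2 and 4 were all well above background, at −2.61, −1.81 and −3.62, and the whole D21 rats 5, 6 and 7 were not, at −5.86, −5.34 and −6.38. On that probe the signal was at least 2.99-fold lower in whole than in depleted D21 cervix, whereas the change on the variant 2 probe was 0.67; the variant 3 value is given with no test, since the probe was picked out after its values were seen and entered that comparison only through the group where it is high. The immediate-early list, which holds genes such as Fos that respond within minutes to handling of cells, was higher in both depleted groups as well: its mean log2 level ran from 0.82 to 1.49 in depleted NP, from 2.07 to 2.34 in depleted D21, from −1.43 to −1.31 in whole NP and from −1.13 to −0.82 in whole D21 cervix, and 12 of 14 genes were called lower in whole D21 cervix. Over all genes 7.73% were called lower in whole than in depleted D21 cervix. The part of the immediate-early list in the variant 3 difference was not tested. In NP rats the variant 3 probe was well above background in depleted rats 5 and 6 (−3.38 and −3.68) and whole rat 10 (−3.90), too few to be tested. The first variant 1 probe was well above background in 4 depleted rats and no whole rat, with −4.75 and −4.56 in NP rats 5 and 6 and −3.50 and −2.08 in D21 rats 1 and 2. On this first probe depleted D21 rat 4 was not well above background either (−4.00), so no bound on the fold change is given. The second was well above background in depleted NP rat 6 and depleted D21 rat 2 only. The variant 2 probe lies 184866 and 183954 bases from the variant 1 probes and 54655 bases from the variant 3 probe. The gene is known to make a receptor with its kinase and shorter forms without it, and the files do not say which variant encodes which. When the log2 values of all 4 probes were averaged, Ntrk2 was lower in whole D21 than in depleted D21 cervix (−1.27, adjusted p = 0.0414) and lost its call between depleted groups (1.19, adjusted p = 0.122).

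**Figure D4:**
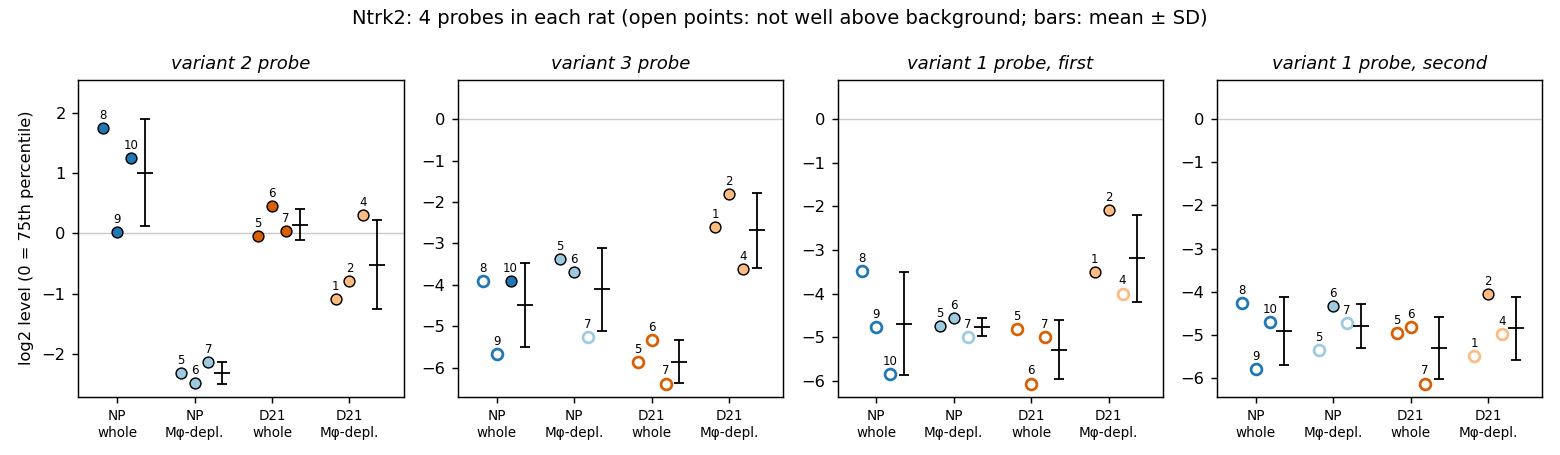
Log2 level of the 4 Ntrk2 probes in each rat, with the array's 75th percentile as 0 (y axis, scaled separately for each probe), by group (x axis), with rat numbers at the points, open points not well above background, and bars for the mean and SD of 3 rats. Only the variant 2 probe was well above background in all 12 rats, and the variant 3 probe was highest in Mφ-depleted D21 cervix, at a mean of −2.68.

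Among Mφ-depleted rats, readings of Gap43 and Sox10 were high and low in the same animals as axon transcripts. Gap43 read −0.88, −4.86 and −0.46 in depleted NP rats 5, 6 and 7 and −4.08, −3.24 and −0.22 in depleted D21 rats 1, 2 and 4. Sox10 read −2.24, −4.58 and −2.57 in those NP rats and −3.70, −3.71 and −1.0 in those D21 rats. The mean log2 level of 14 axon and neuron genes, a list that holds neither, was −0.40, −4.03 and −0.02 in the NP rats and −3.60, −2.38 and 0.61 in the D21 rats. NP rats 5 and 7 and D21 rat 4 thus had the highest readings in all 3 measures. Sox10 was not well above background in depleted NP rats 6 and 7, though, and was so in the depleted D21 rats 1, 2 and 4. The array of NP rat 7 was the dimmest, so the level of Sox10 in that rat is uncertain. Nefl, a neurofilament subunit, read −0.38 and 0.15 in depleted NP rats 5 and 7 and 0.40 in depleted D21 rat 4, and was not well above background in the other 3 depleted rats. Stmn2, a microtubule regulator of growing axons, read 0.12, 0.66 and 1.27 in the same 3 rats and between −7.43 and −3.57 in the others. Dbh, the noradrenaline-synthesising enzyme of sympathetic nerves, was well above background in those 3 of the 6 depleted rats, at −1.13, −1.30 and 0.45. In whole cervix the axon and neuron list spread less, from −2.13 to −0.73 in NP rats and from −2.24 to −1.29 in D21 rats. These rats lie on different slides and scan days, with NP rat 7 and D21 rat 4 on slide 1, NP rat 5 on slide 3 with NP rat 6, and D21 rat 1 alone on slide 4. How much nerve or ganglion each dissection held was not recorded in the labels, and its part in the spread was not tested.

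The sign of the Gap43 and Sox10 comparisons between depleted groups turned on single rats. Gap43 between depleted groups, −0.45, turned to 0.15, 0.36 and 0.34 without NP rat 5, NP rat 7 or D21 rat 1. Sox10, 0.33, turned to −0.40 and −0.57 without NP rat 6 or D21 rat 4. Gap43 was nearest of all lists to the axon and neuron mean, with a root mean square difference of 0.503 over the 12 arrays against a spread of its own of 1.48, and Sox10 was too (0.604 against 0.883), ahead of the Schwann cell list (0.663). For Ngfr the same distance was 2.13, more than its own spread of 1.34. Among the 5 genes compared, which leave out Bdnf and Gdnf, the closest pair was Gap43 and Sox10 (0.797) and the farthest Gap43 and Ngfr (2.20).

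**Figure D5:**
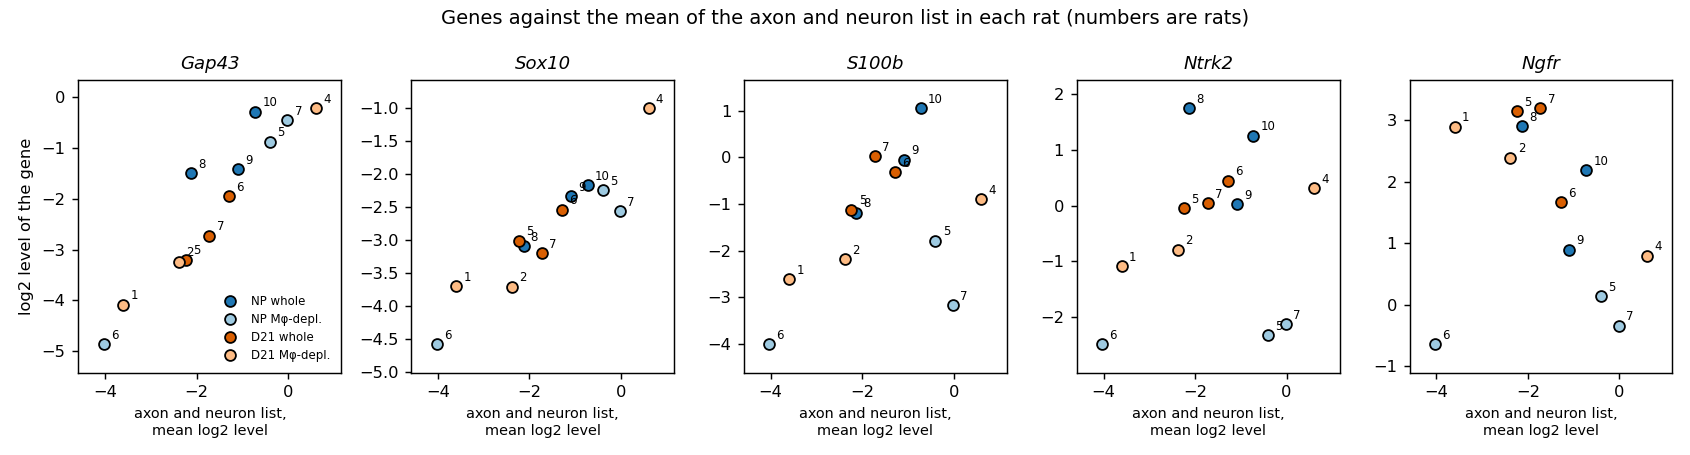
Log2 level of Gap43, Sox10, S100b, Ntrk2 and Ngfr (y axes) against the mean log2 level of 14 axon and neuron genes (x axis) in each of the 12 rats, coloured by group and numbered by rat. Gap43 rises along the list from −4.86 in Mφ-depleted NP rat 6 to −0.22 in Mφ-depleted D21 rat 4, whereas Ngfr is below 0.2 in depleted NP rats at both ends of the list.

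The genes whose values over the 12 rats lay closest to each of the 5 were named by the same distance, among 13315 other genes well above background on at least 9 arrays. For Gap43 they were Tubb3, the neuronal tubulin (0.380), Nsg2 (0.572) and Gng3 (0.579). For Sox10 they were Sfrp5 (0.345), Gng3 (0.494) and Golsyn (0.496). For Ntrk2 they were Igfbp4, an insulin-like growth factor binding protein (0.373), LOC305633 (0.390) and the fibroblast growth factor receptor Fgfr1 (0.393). For S100b they were Art3 (0.565), the matrix protease Adamts5 (0.603) and Fez1 (0.647), and for Ngfr nod3l (0.602), Wisp1 (0.622) and the unnamed transcript TC582612 (0.643).

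Of the ligands, Bdnf was not well above background in any of the 12 rats, on a probe with 10 spots per array. Gdnf was well above background only in Mφ-depleted D21 rats 1 (−4.94) and 2 (−3.33) and could not be tested. Ret was not well above background in any rat on its brightest probe. Another Ret probe was well above background in depleted NP rats 5 and 7 (−3.91 and −2.28), depleted D21 rat 4 (−1.59) and whole NP rat 10 (−4.21), a set that holds the 3 depleted rats high in Gap43.

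The other genes of these pathways that were called between D21 and NP whole cervix stand against 5.39% of all genes called higher and 3.09% lower. Of 8 neurotrophin ligands and receptors tested 1 was higher: Ntf4, the other Ntrk2 ligand, by 2.61-fold (log2 1.38 ± 0.30, SE, adjusted p = 0.0260), with 1 of 3 NP rats well above background. Ntf4 entered the comparison only through the D21 rats, where it was higher, as did Unc5b below. The list median was 0.01 against −0.08 over all genes. Of 4 genes of the GDNF family 1 was lower: Artn, a ligand for sympathetic and sensory axons (−2.06 ± 0.58, adjusted p = 0.0601). Of 10 other trophic and guidance genes 3 were higher: Unc5b, a netrin receptor well above background in 1 of 3 NP rats (2.80 ± 0.57, adjusted p = 0.0200), and the secreted semaphorins Sema3f (1.50 ± 0.31, adjusted p = 0.0206) and Sema3c (1.05 ± 0.27, adjusted p = 0.0462), with a list median of 0.77. Of 12 Schwann cell genes 2 were higher: Erbb3, a neuregulin receptor that epithelia also make (1.64 ± 0.35, adjusted p = 0.0227), and Mal, a membrane protein of myelin and of epithelia (1.80 ± 0.51, adjusted p = 0.0634). The epithelial list had a mean log2 level of 3.09 to 3.40 in whole NP and of 3.95 to 4.49 in whole D21 cervix, and its part in Erbb3 and Mal was not tested. Of 13 axon and neuron genes 0 were called, with a median of −0.54. With slide as a block, the comparison of whole D21 with whole NP cervix rests on NP rat 10 alone. It was the only NP rat on slide 2, which held the 3 whole D21 rats. No call is therefore given under that setting for the 7 genes called here. Values other than that of Unc5b were −0.99 for Artn, 1.40 for Erbb3, 1.13 for Mal, 1.43 for Ntf4, 1.15 for Sema3c and 1.29 for Sema3f. Artn lost its call without NP rat 8 or 9 or D21 rat 6 or 7 (−2.01 to −1.58), Mal without NP rat 8 or 9 or D21 rat 6 (1.46 to 1.76), and Sema3c without NP rat 10 or D21 rat 7 (1.00 and 0.92).

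The Schwann cell list held 21 genes on the array, of which Pmp2, Gfap, Fabp7 and Gjc3 were not well above background in any rat and 6 were in all 12. Its mean log2 level, over 11 genes, ran from −1.86 to −1.41 in whole NP, from −1.53 to −1.10 in whole D21, from −1.82 to −1.59 in depleted NP and from −2.67 to −0.91 in depleted D21 cervix. Sox10 is also made by melanocytes, and of the 7 melanocyte markers on the array Mitf was well above background in 11 rats, Silv and Mlana in 4 each, and Tyr, Tyrp1, Dct and Slc45a2 in 0. Silv was at least 2.59-fold lower in whole D21 than in whole NP cervix. This bound is given with no test. No whole D21 rat had Silv well above background, so it entered that comparison only through the NP rats. Mitf was higher in depleted D21 than depleted NP cervix (2.84 ± 0.64, adjusted p = 0.0281). It was also higher in whole than depleted NP cervix (2.36 ± 0.64, adjusted p = 0.0151). Mitf was not well above background in depleted NP rat 7, so it entered both comparisons only through the group where it was higher. The part of melanocytes in the Sox10 levels was not tested.

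With Mφ depletion, Pmp22, a myelin protein that fibroblasts also make, was higher in whole than in depleted cervix in NP rats (7.55-fold, log2 2.92 ± 0.34, SE, adjusted p = 8.9e-05) and D21 rats (1.09 ± 0.34, adjusted p = 0.0416), and higher in depleted D21 than depleted NP cervix (1.38 ± 0.34, adjusted p = 0.0437). Erbb3 was lower in whole NP than depleted NP cervix (−1.49 ± 0.34, adjusted p = 0.00675). Of the Schwann cell list 1 of 10 genes was called each way in NP rats, against 13.6% of all genes higher and 10.8% lower. In D21 rats it was 1 of 12 higher, against 10.0%, and between depleted groups 1 of 9, against 5.43%. The epithelial list had a mean log2 level of 4.73 to 5.28 in depleted NP and of 3.09 to 3.40 in whole NP cervix. The part of that list in Erbb3 was not tested. Of the axon list 1 of 9 genes tested was higher and 1 lower in whole NP cervix, against 13.6% and 10.8% of all genes. The neuropeptide Gal, also made by other cells, was higher (2.81 ± 0.55, adjusted p = 0.00260). Only 1 of 3 depleted NP rats had Gal well above background. Gal thus entered this comparison, and that between depleted groups below, only through the group where it was high. Calcb, a sensory neuropeptide, was the lower one. No whole NP rat had Calcb well above background, so it entered that comparison only through the depleted rats. Its change is given as a bound with no test, at least 7.65-fold lower. Calcb was lower in whole D21 cervix as well (−2.50 ± 0.76, adjusted p = 0.0382; 1 of 3 whole rats well above background), and Gal, well above background in 1 of 3 depleted NP rats, was higher in depleted D21 than in depleted NP cervix (4.08 ± 0.55, adjusted p = 0.00203). With slide as a block Calcb lost its call in NP rats (−2.57). No slide held both whole and depleted D21 rats, so block values in D21 rats come only through the NP rats. They were −1.79 for Calcb and 0.53 for Pmp22, and no call is given for them.

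The next counts stand against the shares of all genes. Those were 13.6% higher and 10.8% lower in whole over depleted NP cervix, and 10.0% and 7.73% in D21 rats. Between depleted groups they were 5.43% higher and 2.06% lower in D21 rats. Among neurotrophin genes Ntrk3, the neurotrophin 3 receptor, was lower in whole than in depleted D21 cervix (−1.29 ± 0.30, adjusted p = 0.0153). In NP rats 1 of 7 was higher, Maged1, which binds Ngfr inside the cell (1.57 ± 0.36, adjusted p = 0.00701). The GDNF coreceptor Gfra1 was higher in whole D21 cervix (2.35 ± 0.63, adjusted p = 0.0244), as 1 of 4 tested. The 3 whole D21 rats were all on slide 2 and the depleted D21 rats on slides 1, 3 and 4, so no slide held both. With slide as a block Gfra1 was −0.012, a value that comes only through the NP rats, and no call is given for it. Of the trophic and guidance genes in NP rats, Mdk (3.35 ± 0.25), Slit3 (2.03 ± 0.26) and Ptn (1.72 ± 0.43, adjusted p = 0.0109) were higher and Sema3f lower (−2.40 ± 0.31) of 7 tested; Mdk and Ptn are heparin-binding growth factors and Slit3 an axon guidance ligand, all made by stroma too. In D21 rats Mdk was higher (1.47 ± 0.26) and Sema3f lower (−1.56 ± 0.31) of 10. Between depleted groups 4 of 8 were higher in D21 rats, Slit3 (1.90 ± 0.26), Sema3c (1.50 ± 0.27), Mdk (1.18 ± 0.25) and Ptn (1.42 ± 0.43, adjusted p = 0.0959), with a list median of 1.30 against 0.02 over all genes. With slide as a block Maged1 (0.97) and Ptn between depleted groups (1.26) were not called, and Ptn lost the latter call without any 1 of the 6 depleted rats (1.28 to 1.56). For Sema3f in D21 rats the block value was −1.64, which also comes only through the NP rats, so no call is given.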

How the data were processed

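The authors deposited the scanner intensity of each spot (Agilent Feature Extraction 9.5.3.1, background subtracted and detrended, not normalized between arrays) and a table of ratio values, intensity over its array's 75th percentile; setting each column against the intensities gave a median ratio near 1, and column medians were from 0.08 to 0.12. Control and outlier spots (294 to 648 per array) were left out, spots of a probe were averaged, and the log2 of the 75th percentile was subtracted. Genes carry the names of the array files, which rest on an old annotation; 17328 of 30367 probes matched RefSeq accessions.

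limma 3.58.1 in R 4.3.3 was fitted to all 12 arrays, a mean for each group and no covariates. The Methods name Welch's test with the same threshold; it was run on the same values as the methods' t-test. Plots used matplotlib 3.10.9. The fit was tested on simulated data. The number of arrays, 3 a group, limits precision; 3 against 3 allow no exact permutation p below 0.1. The labels give each rat its own number, and p-values measure the spread between rats.

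The 7 genes, the lists and the tests were chosen with earlier results of these data known. Some items that the rule names are not reported here. Named were all 7 with every probe, Ret, the genes of each pathway list called in a comparison (up to 4 a direction by p), and the 3 genes closest to each of the 5 measured on at least 9 arrays. Lists were neurotrophin (12 genes, 11 on the array), GDNF family (9), trophic and guidance (18), Schwann cell (22, 21 on the array), axon and neuron (26), and markers of 10 cell types or states. Also tried were the methods' t-test (unadjusted or adjusted), the adjusted threshold, a fit to the compared arrays alone, normexp (offset 50), quantile normalization, the percentile over detected probes, no or a stricter background filter, the mean of all probes, RefSeq names, weights for arrays, a block for slide or for scan day, the deposited ratios, and omission of each rat; testing each probe was added after seeing the data.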

Additional observations from a re-analysis of the deposited data

Results flagged for a closer look

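For 6 named genes the whole-over-depleted change was called different between D21 and NP rats (D21 minus NP, log2, limma). Over all genes 4.99% were called lower and 2.45% higher by this test of the difference. Only Erbb3 and Mdk had an adjusted p below 0.05. At that level a difference was not shown for Ntrk2, Gal, Pmp22 or Slit3. For Ntrk2 the difference was −2.65 (adjusted p = 0.0567): its change was 3.32 in NP and 0.67 in D21 rats, on the variant 2 probe. For the other 5, outside the 7 genes, the difference was 2.50 for Erbb3 (adjusted p = 0.0264), −3.23 for Gal (0.0584), −1.88 for Mdk (0.0249), −1.82 for Pmp22 (0.0787) and −1.25 for Slit3 (0.102). Of the 10 fibroblast markers 7 were lower by the same test and 0 higher, with a median of −3.21. The part of the fibroblast markers in these differences was not tested.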

How the results depend on the processing

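No paired analysis was possible because the groups compared share fewer than 2 rat numbers. In these counts the cause was not tested, apart from the threshold or probes a setting itself changes. Of genes called higher in depleted D21 over NP cervix (2 of 5), 0 were left by the methods' t-test with or without adjustment and 1 with the adjusted threshold, the mean of all probes, slide as a block or scan day as a block; leaving out each rat gave 1 to 2. Of genes higher in whole over depleted NP cervix (3 of 4), 0 were left by the methods' t-test with or without adjustment, 1 with slide as a block and 2 with the mean of all probes; leaving out each rat gave 2 to 3. In whole over depleted D21 cervix (0 called), array weights gave 1 higher (S100b, 1.88) and the mean of all probes 1 lower (Ntrk2). The Ntrk2 difference (1 called lower) became 0 with the adjusted threshold. In whole cervix D21 over NP, leaving out each rat gave 0 to 1 lower. Of all settings tried over the 7 genes, 26 turned a sign, 28 lost a call, 2 gained one and 595 kept direction and side of the threshold; 1 of the 26 was a call in the other direction, Ntrk2 in whole over depleted D21 cervix with the mean of all probes (−1.27). Over the other pathway genes 135 settings lost a call and 1 turned a sign. Detection differed between arrays: 44.9% of probes were well above background in Mφ-depleted NP rat 7 against 61.7% in rat 5.

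Signs turned, on the log2 scale, for Sox10 in D21 over NP whole cervix with normexp (0.21); in whole over depleted D21 cervix for Gap43 with normexp (0.13), the percentile over detected probes (0.077) and array weights (0.77), for Sox10 with the percentile over detected probes (0.075) and array weights (0.48), for Ntrk2 with slide as a block (−0.30), for S100b with slide as a block (−0.81), and for Gfra1 with slide as a block (−0.012); and in whole over depleted NP cervix for Gap43 with slide (−1.18) or scan day as a block (−0.79). No slide held both whole and depleted D21 rats, so the slide-block values in whole over depleted D21 cervix come only through the NP rats. Leaving out each rat ranged from −0.97 to 0.15 for S100b in whole cervix, from −0.57 to 0.78 for Sox10 and −1.84 to 0.36 for Gap43 in depleted D21 over NP, from −0.57 to 0.79 for Sox10 and −0.90 to 1.04 for Gap43 in whole over depleted D21, from −0.40 to 1.80 for Gap43 in whole over depleted NP, and from −1.17 to 0.19 for Sox10 and −1.91 to 0.29 for Gap43 in the difference. The percentile over detected probes moved the median of all genes by −0.16 in depleted D21 over NP and 0.19 in whole over depleted D21 cervix, and the share of calls that were higher from 72.5% to 57.6% and from 56.5% to 70.3%; normexp moved that share in whole cervix from 63.5% to 76.4%.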
